A study of Mus musculus with 25 samples.

Results

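RNA was sequenced from cells sorted from mouse brain, and the account below follows 9 genes of the 36528 in the count files: Tlcd4, Ptpn4, Deptor, Pgr, Ptpn5, Cnrip1, Ankrd49, Dcdc5 and Snai2. They were picked because their counts were lower in astrocytes of mice transgenic for human tau with the mutation P301S (hMAPT-P301S) than in astrocytes of non-transgenic (non-Tg) littermates. That difference is therefore a description of how the genes were picked: no p-value of theirs is given for it, and calls made over the whole table in that contrast are printed as background only. All mice were 6 months old. Astrocytes had been sorted as Gfap-positive and neurons as NeuN-positive cells, giving 6 non-Tg and 5 P301S astrocyte libraries and 8 non-Tg and 6 P301S neuron libraries. The labels name neither the promoter that drives the transgene nor the brain region. Whether animals were pooled for a library, and which neuron and astrocyte libraries came from the same animal, is not stated, so p-values measure the spread between these libraries. The neuron libraries took no part in picking the genes, and the genotype comparison in neurons is the one that was tested.

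Tau is a microtubule-binding protein of neurons, and the P301S mutation makes it prone to aggregate. Astrocytes, which clear transmitter and ions and supply metabolites to neurons, change their expression as aggregated tau spreads through the tissue. The 9 genes do not form a pathway. Ptpn4 and Ptpn5 are non-receptor tyrosine phosphatases. Deptor is an inhibitory subunit of the mTOR kinase complexes, and Cnrip1 binds the tail of the CB1 cannabinoid receptor. Pgr, the progesterone receptor, and Snai2, also called Slug, are transcription factors. Tlcd4 is a membrane protein with a TLC domain, Ankrd49 has ankyrin repeats, and Dcdc5 has doublecortin domains, the microtubule-binding fold first described in doublecortin.

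All 9 are protein-coding genes, placed here on the mouse build GRCm38.p6 as annotated by RefSeq. The phosphatase Ptpn4 (gene ID 19258) spans chr1:119652467-119837585 on the minus strand and Ptpn5 (19259) spans chr7:47077795-47134026 on the minus strand. Deptor (97998) lies at chr15:55112317-55259273 and Cnrip1 (380686) at chr11:17051859-17079372, both on the plus strand. Pgr (18667) lies at chr9:8898900-8968611 and Snai2 (20583) at chr16:14705852-14709395, both on the plus strand. Tlcd4 (99887), still named Tmem56 in older annotation, lies at chr3:121202008-121283108 on the minus strand. Ankrd49 (56503) lies at chr9:14779620-14784573 on the minus strand and Dcdc5 (329482) at chr2:106080864-106409743 on the plus strand. The genes therefore sit on 8 chromosomes, with Pgr and Ankrd49 both on chromosome 9.

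RefSeq windows of 250 bases before to 50 bases after a transcript start were available for 7 of the 9 genes, all but Deptor and Snai2. Each window was searched on both strands for 4 short motifs: CAGGTG, an E-box of the kind bound by Snail-family repressors such as Snai2; TGTTCT, the half-site shared by the progesterone, glucocorticoid and androgen receptors; GGGCGG, the GC box; and CCAAT. Among the first windows of the 7 genes, 3 held CAGGTG, 3 held TGTTCT, 4 held GGGCGG and 3 held CCAAT. Of all 32841 promoter windows in the table, 20.2% held CAGGTG, 19.0% held TGTTCT, 35.7% held GGGCGG and 37.4% held CCAAT. A match is a string of letters and shows no binding. Tlcd4 and Ptpn5 each had a second window, and that of Tlcd4 held no CAGGTG and no TGTTCT. The first windows of Tlcd4, Pgr, Ptpn4 and Ptpn5 each lie inside the RefSeq span of the gene, not at its 5′ end. So do the second windows of Tlcd4 and Ptpn5. Because Snai2 itself belongs to the set, the first windows with the E-box letters were chosen for printing. That of Ankrd49 was added because it reaches into a neighbouring gene. Printed below are therefore the first windows of Tlcd4, Pgr, Dcdc5 and Ankrd49. They run 5′ to 3′ on each gene's own strand at chr3:121263291-121263590 (minus), chr9:8899583-8899882 (plus), chr2:106080749-106081048 (plus) and chr9:14784524-14784823 (minus), with every match to the 4 motifs, on either strand, in capitals.
Tlcd4: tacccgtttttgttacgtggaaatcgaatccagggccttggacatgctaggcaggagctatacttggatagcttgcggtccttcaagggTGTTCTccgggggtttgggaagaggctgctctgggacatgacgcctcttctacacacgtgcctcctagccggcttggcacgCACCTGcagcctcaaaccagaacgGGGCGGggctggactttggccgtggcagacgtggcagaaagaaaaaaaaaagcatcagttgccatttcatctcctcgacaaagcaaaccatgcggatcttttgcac
Pgr: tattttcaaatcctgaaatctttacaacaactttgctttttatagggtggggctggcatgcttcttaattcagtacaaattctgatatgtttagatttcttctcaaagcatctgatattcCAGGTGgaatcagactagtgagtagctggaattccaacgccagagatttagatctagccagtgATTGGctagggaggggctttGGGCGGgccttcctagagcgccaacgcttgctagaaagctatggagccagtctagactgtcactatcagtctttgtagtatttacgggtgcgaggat
Dcdc5: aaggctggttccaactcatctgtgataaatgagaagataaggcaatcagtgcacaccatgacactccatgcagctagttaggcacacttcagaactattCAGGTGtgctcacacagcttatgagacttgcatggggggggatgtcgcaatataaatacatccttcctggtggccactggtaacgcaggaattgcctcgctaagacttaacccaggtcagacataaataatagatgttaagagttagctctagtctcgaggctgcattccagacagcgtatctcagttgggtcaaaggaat
Ankrd49: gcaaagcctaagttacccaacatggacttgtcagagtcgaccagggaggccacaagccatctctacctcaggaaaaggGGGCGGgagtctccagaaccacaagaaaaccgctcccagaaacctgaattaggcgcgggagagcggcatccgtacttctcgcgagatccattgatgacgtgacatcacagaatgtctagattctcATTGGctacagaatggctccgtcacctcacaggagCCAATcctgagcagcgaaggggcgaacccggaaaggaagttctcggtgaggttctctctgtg

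No 2 matches overlapped in these windows. Of the Ankrd49 window, 170 bases belong to Mre11a, a DNA repair gene transcribed away from Ankrd49 on the other strand, 80 bases form the gap between the genes and 50 bases are the start of Ankrd49. CpG content differed widely: the first windows of the 7 genes held 5 to 44 CpG sites with a median of 8, and the window of Ptpn4 held 44. The median over all promoter windows was 7.

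Total counts ranged from 1245964 to 4453555 over the 25 libraries. The sort was checked against marker genes. Gene levels are given as counts per 1000000 (CPM), scaled by the TMM method over all 25 libraries. Marker sums are CPM of total counts without TMM scaling. The 11 astrocyte markers, among them Slc1a2, Aqp4 and Gja1, summed to between 10117 and 24251 CPM in the astrocyte libraries. In the neuron libraries they summed to between 361 and 874 CPM. The 15 neuron markers, among them Rbfox3, which encodes NeuN, summed to between 609 and 1016 CPM in astrocyte libraries against 3291 to 4596 CPM in neuron libraries. Astrocyte libraries thus carried neuron transcripts, and a level in them is a level in a bulk of sorted cells, in which fewer cells of a type and less RNA per cell cannot be told apart. At 1000000 counts the P301S astrocyte libraries held 11952 to 16430 detected genes, against 15071 to 17930 in non-Tg astrocytes. P301S library 4 had the fewest, library 3 came next with 13293, and library 1 lay within the non-Tg range.

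Ptpn4 was the most abundant of the 9 genes in astrocytes. Its raw counts in the 6 non-Tg astrocyte libraries were 418, 414, 276, 359, 454 and 806, and in the 5 P301S astrocyte libraries 318, 175, 109, 81 and 173. In CPM the highest P301S library, at 89.5, stayed below the lowest non-Tg library, at 131, so the groups did not overlap. The mean was 165 ± 53.8 CPM (SD, n = 6) in non-Tg and 62.2 ± 17.8 CPM (SD, n = 5) in P301S astrocytes, a ratio of 2.66, the smallest of the 9. Ptpn4 was also the only one of the 9 with more than 80 counts in every library.

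The other phosphatase, Ptpn5, known as STEP and studied mainly in neurons, where it dephosphorylates glutamate receptor subunits and MAP kinases, was scarce in astrocytes. Counts were 5, 17, 2, 58, 27 and 6 in non-Tg astrocytes and 3, 0, 2, 0 and 0 in P301S astrocytes. Non-Tg library 4 alone held 58 of the 115 non-Tg counts. The groups did not overlap in CPM, but narrowly: the lowest non-Tg library had 1.06 CPM and the highest P301S library 0.845 CPM. The means were 7.76 ± 10.5 (SD, n = 6) and 0.318 ± 0.437 CPM (SD, n = 5). Summed over libraries, 115 counts against 5 gave a depth-scaled ratio of 18.6, with an exact 95% interval of 7.75 to 58.4 that covers counting error only. A lncRNA on the opposite strand, Gm14377, overlaps Ptpn5 and had 20 counts in the non-Tg and 6 in the P301S astrocyte libraries. Whether the counting used strand is not given in the sources used here, so reads of the 2 genes could be mixed.

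Deptor had counts of 137, 83, 46, 106, 218 and 115 in non-Tg and of 41, 51, 29, 5 and 23 in P301S astrocytes. Every P301S library, at up to 16.1 CPM, was below every non-Tg library, at 24.5 CPM or more. The mean was 41.6 ± 15.1 CPM (SD, n = 6) against 10.2 ± 4.48 CPM (SD, n = 5), a ratio of 4.09. The antisense lncRNA that overlaps its start, Gm9920, had 4 and 6 counts in the same groups, too few to bear on these values.

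Cnrip1 went from counts of 49, 53, 27, 31, 57 and 24 in non-Tg astrocytes to 16, 5, 0, 1 and 0 in P301S astrocytes. Its non-Tg level varied little, at 14.5 ± 3.29 CPM (SD, n = 6), with library 6 lowest at 8.03 CPM. P301S astrocytes averaged 1.37 ± 1.87 CPM (SD, n = 5), a ratio of 10.6, and their highest value, 4.50 CPM in library 1, was below the non-Tg range. Library 1 held 16 of the 22 P301S counts.

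The 2 transcription factors were both near the limit of counting in P301S astrocytes. Pgr had 17, 4, 13, 5, 10 and 9 counts in the non-Tg libraries and 0, 0, 0, 0 and 1 in the P301S libraries. Its level was low to begin with, at 3.68 ± 2.10 CPM (SD, n = 6), and the groups did not overlap. The summed counts of 58 and 1 gave a depth-scaled ratio of 46.9, with an exact 95% counting interval of 8.10 to 1885, so the size of the difference is known only to within orders of magnitude.

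Snai2 had counts of 1, 21, 17, 8, 14 and 15 in non-Tg astrocytes and of 1, 1, 0, 1 and 1 in P301S astrocytes. It is the one gene of the 9 whose groups overlapped, because non-Tg library 1 held a single count and lay at 0.324 CPM, among the P301S libraries. The other non-Tg libraries had at least 3.94 CPM. The depth-scaled ratio of the summed counts, 76 against 4, was 15.4, with an exact 95% counting interval of 5.76 to 57.9.

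Tlcd4, whose TLC domain relatives handle membrane lipids and include the ceramide synthases, was the most even of the 9 in non-Tg astrocytes. The counts there were 123, 179, 107, 94, 188 and 156, which came to 51.1 ± 6.76 CPM (SD, n = 6). The P301S counts were 42, 45, 11, 2 and 11, or 7.15 ± 5.51 CPM (SD, n = 5), a ratio of 7.16. The highest P301S library, at 14.2 CPM, was far below the lowest non-Tg library, at 39.9 CPM. P301S libraries 1 and 2 held most of the remaining counts.

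Ankrd49 had 28, 56, 12, 57, 88 and 58 counts in non-Tg and 14, 7, 4, 1 and 5 counts in P301S astrocytes. The means were 17.7 ± 8.68 CPM (SD, n = 6) and 2.05 ± 1.19 CPM (SD, n = 5), a ratio of 8.63, and the groups did not overlap. Mre11a, which starts 80 bases away on the opposite strand and was singled out after its values were seen, did not show the same pattern. Its counts were 90, 74, 22, 56, 40 and 66 in non-Tg and 53, 110, 37, 2 and 24 in P301S astrocytes. The groups overlapped, and the log2 fold change of Mre11a was -0.50 (SE 0.65, edgeR adjusted p = 0.774).

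Dcdc5 was at 0 in 3 of the 5 P301S astrocyte libraries. Non-Tg astrocytes had 44, 45, 7, 14, 25 and 59 counts, and P301S astrocytes 2, 1, 0, 0 and 0. The means were 11.03 ± 6.02 CPM (SD, n = 6) and 0.176 ± 0.256 CPM (SD, n = 5). Summed, 194 counts against 3 gave a depth-scaled ratio of 52.3, with an exact 95% counting interval of 17.6 to 256. All 5 P301S libraries were at or below 3 counts and all 6 non-Tg libraries above it.

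**Figure D1:**
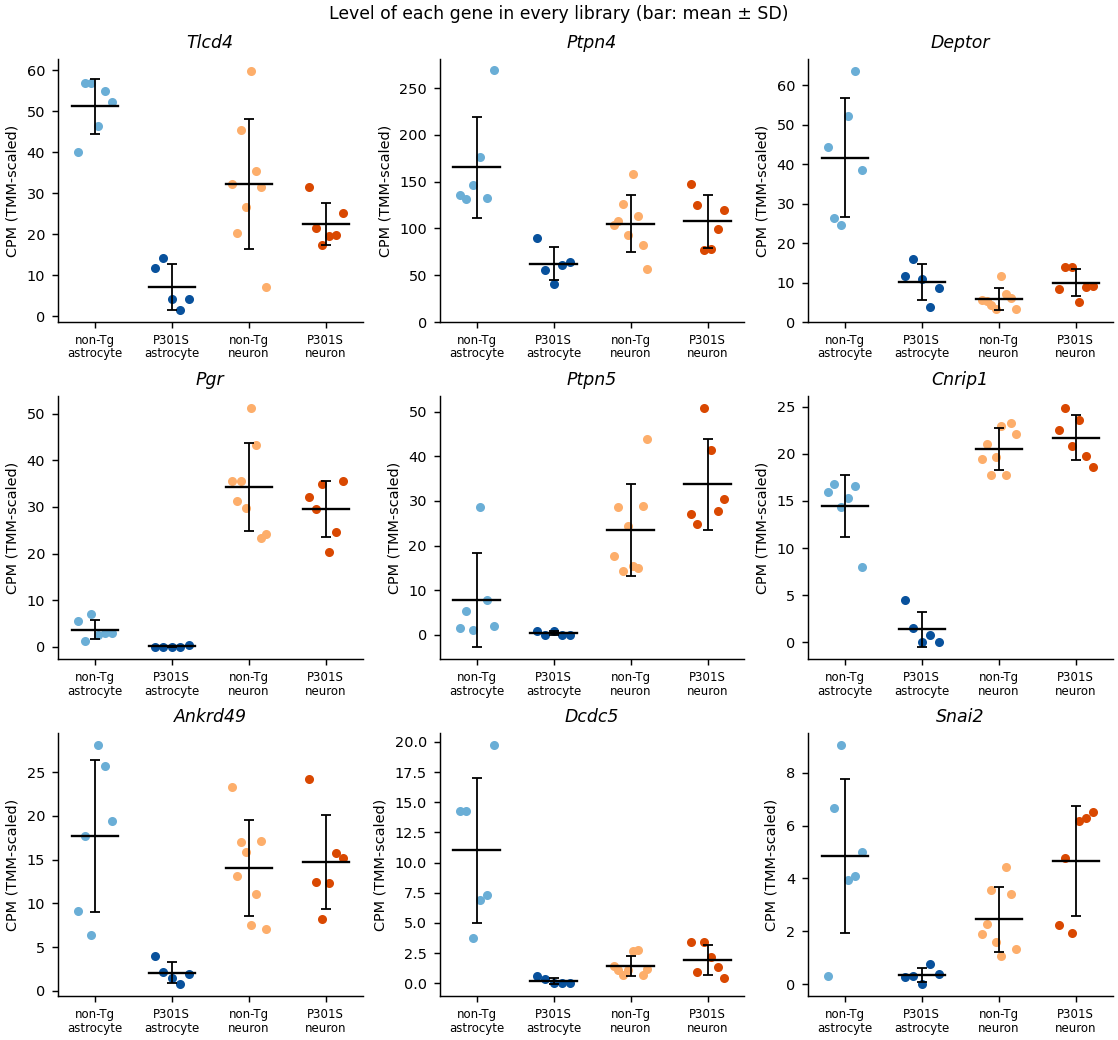
Level of each of the 9 genes in every library, in CPM after TMM scaling (vertical axis, a separate linear scale for each gene); points are libraries, the wide bar is the group mean and the whiskers are 1 SD. In astrocytes the P301S points lie below all non-Tg points for every gene but Snai2, while the 2 neuron groups overlap for all 9.

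Read together, 8 of the 9 genes had P301S and non-Tg astrocyte groups that did not overlap. Of these 8, Pgr and Ptpn5 were under a filter on low counts and have no part in the share that follows. That share was scaled over the astrocyte libraries alone. Over all 12130 genes tested in astrocytes, 0.923% had every P301S library below every non-Tg library. The edgeR quasi-likelihood fit (a count model for 2 groups) over those genes called 3 genes lower at a Benjamini-Hochberg adjusted p under 0.05, or 0.0247%, and all 3 are among the 9: Tlcd4, Ptpn4 and Dcdc5. Since the genes were picked on this contrast, nothing is read from these counts. The fit could be made for 7 of the 9, Pgr and Ptpn5 being under its filter on low counts. The log2 fold changes were -2.81 (SE 0.57) for Tlcd4, -1.42 (SE 0.32) for Ptpn4, -2.03 (SE 0.53) for Deptor, -3.31 (SE 0.96) for Cnrip1, -3.05 (SE 0.76) for Ankrd49, -5.46 (SE 1.07) for Dcdc5 and -3.78 (SE 1.06) for Snai2. The median over all genes tested was 0.13. Of the genes with a negative log2 fold change, Ptpn4 lay just inside the threshold, and Tasor (log2 fold change -1.24, SE 0.30) and Ift80 (-2.48, SE 0.60) lay just outside it.

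The direction was negative in every alternative fit that was run. The choice of the genes on these same libraries favours that sign, so it adds no support. The calls were not stable. DESeq2, and an edgeR fit of all 25 libraries, called all 9 genes lower, among 215 genes (1.32% of those tested) and 721 genes (5.08%). With the number of detected genes of each library as a covariate (0% of all genes called lower) or the sex marker level as a covariate (0.0165%), 0 of the 9 were called, as without non-Tg library 6. limma voom called Tlcd4 alone of the 9 (0.0824% of all genes called lower), and the neuron marker level as a covariate ended the call of Ptpn4 (0.0165%). Without non-Tg library 1, 2 or 3 the calls of Tlcd4 and Ptpn4 were lost and Dcdc5 was the 1 gene of the whole table called lower. Ptpn4 also lost its call without non-Tg library 4 or 5 (4 genes of the whole table called lower in each) and without P301S library 2, 3 or 5 (17, 5 and 2 genes).

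At most 3 counts in every P301S astrocyte library, with more than 3 in all or all but 1 of the non-Tg libraries, is a rare pattern. It held for Dcdc5 and Snai2 among the 12130 genes tested, of which 0.0577% showed it. Over all 36528 genes in the files it also held for Pgr and Ptpn5, and 0.181% showed it, against 0.0356% for the reverse pattern. The share of genes at this floor was thus larger in the direction of loss in P301S astrocytes in the whole table, not only among these genes.

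By the way the genes were picked, the P301S libraries are low, and the values of each library are given as a description. Libraries 1, 2 and 3 were below every non-Tg library for 9 of the 9 genes, and libraries 4 and 5 for 8 of 9. The number of the 9 genes with any count was 9 in each non-Tg astrocyte library and 8, 7, 5, 6 and 6 in the P301S libraries. The levels of the 9 genes summed to between 267 and 417 CPM in non-Tg and between 57.9 and 123 CPM in P301S astrocytes, with Ptpn4 the largest part of each mean. For Snai2 the order of P301S library 1 and non-Tg library 1 rests on 1 count in each.

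Other measures moved with genotype in the astrocyte libraries. Mitochondrial counts made up 2.31% to 5.66% of non-Tg and 3.61% to 11.4% of P301S astrocyte libraries. Detected genes had a median of 16839.5 in non-Tg and 14179 in P301S libraries. Without TMM scaling, the astrocyte markers summed to 18710 ± 4107 CPM (SD, n = 6) in non-Tg and 13964 ± 5163 CPM (SD, n = 5) in P301S libraries. On that scale their sum in 4 of the 5 P301S libraries, 10117 to 12464 CPM, was below the lowest non-Tg library, at 13481 CPM. In P301S library 2 it was 23050 CPM. TMM factors were 0.535 to 0.967 in P301S and 0.864 to 1.01 in non-Tg astrocyte libraries. A lower factor gives a larger scaled sum, so this order of the libraries depends on the scale. None of the 11 astrocyte markers was called by edgeR in either direction, and their median log2 fold change was -0.09. The sex marker level, the log2 ratio of Xist to Y-linked transcripts, ran from -2.63 to -1.07 in non-Tg and from -1.75 to 1.81 in P301S libraries. With detected genes or the sex marker level as a covariate, none of the 7 genes tested was called. All 7 had a negative log2 fold change, a sign that the choice of the genes favours. The part of the mitochondrial share and of the astrocyte marker level in the lower levels was not tested.

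Transcripts of other cell types were also measured. The neuron markers were not lower in P301S astrocytes: their sum was 730 ± 76.5 CPM (SD, n = 6) in non-Tg and 849 ± 157 CPM (SD, n = 5) in P301S libraries. The 9 oligodendrocyte markers summed to 182 to 500 CPM in non-Tg and 371 to 1002 CPM in P301S libraries, and the 10 microglia markers to 51.9 to 129 and 72.5 to 183 CPM. The 6 oligodendrocyte precursor markers summed to 220 to 374 and 156 to 535 CPM. All these sums are without TMM scaling, and TMM factors tended to be lower in P301S astrocyte libraries (median 0.824 against 0.931 in non-Tg). Differences between genotypes in the sums therefore depend on the scale. Lower mean sums were seen for vascular and ependymal lists, though with overlap. The 8 mural and fibroblast markers gave 85.1 to 193 CPM in non-Tg and 60.5 to 161 CPM in P301S libraries, the 7 endothelial markers 0.528 to 27.8 and 0.575 to 21.0 CPM, and the 6 ependymal markers 2.64 to 73.9 and 0.400 to 52.5 CPM. Of the 7 endothelial markers, 2 (Cldn5 and Kdr) were at 0 in every P301S astrocyte library. None was at 0 in every non-Tg astrocyte library. These genes are named for being at 0, and the endothelial list as a whole was detected, with 21.0 CPM in P301S library 5. The part of these cell types in the lower levels of the 9 genes was not tested.

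**Figure D2:**
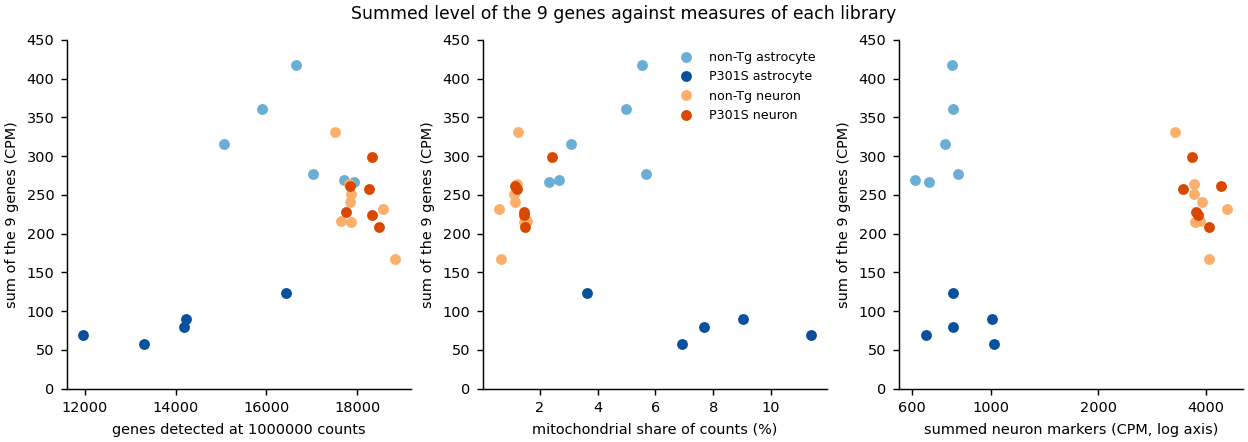
Summed level of the 9 genes (vertical axis, CPM) against the number of genes detected at 1000000 counts, the mitochondrial share of counts in percent, and the summed level of 15 neuron markers (CPM, log axis); each point is 1 library, coloured by group. The P301S astrocyte libraries hold the lowest sums, from 57.9 to 123 CPM, which follows from how the genes were picked.

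In neurons, whose libraries did not enter the choice of the genes, none of the 7 genes tested was called between genotypes by edgeR. Dcdc5 and Snai2 were under its filter on low counts. Of the 10951 genes tested by edgeR, 0.00913% were called, which is 1 gene, Ddx60. Of the 9 genes 7 were tested and 0 called, with 1, Deptor, at an unadjusted p under 0.05, against 7.73% of all genes tested. DESeq2 and limma voom also called 0 of them. Their median log2 fold change was 0.07, beside -0.02 over all genes tested, and 2 were below 0 and 5 above. None of the 9 had groups without overlap, where 0.1% of all genes had P301S lower and 0.119% had P301S higher without overlap.

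The phosphatases were at high levels in neurons of both genotypes. Ptpn4 counts ran from 120 to 478 in non-Tg neurons with a median of 211.5, and from 158 to 277 in P301S neurons with a median of 241. Its level was 105 ± 30.2 CPM (SD, n = 8) and 108 ± 28.2 CPM (SD, n = 6), a log2 fold change of 0.03 (SE 0.20, edgeR adjusted p = 0.982). Ptpn5 had a median of 39.5 counts in non-Tg neurons, in a range of 20 to 231, and of 66 counts in P301S neurons, in a range of 48 to 114. All 6 P301S neuron libraries were above the non-Tg mean of 23.5 ± 10.2 CPM (SD, n = 8), but the groups overlapped. Their own mean was 33.7 ± 10.2 CPM (SD, n = 6), and the log2 fold change of 0.48 (SE 0.25, edgeR adjusted p = 0.687) did not pass the test. Gm14377, the antisense lncRNA in Ptpn5, had 265 counts in the non-Tg and 184 in the P301S neuron libraries, against 558 non-Tg counts of Ptpn5.

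Deptor had the smallest neuron p of the 7 genes tested. Counts were low, from 6 to 24 with a median of 12.5 in non-Tg neurons and from 14 to 29 with a median of 20.5 in P301S neurons. The level was 5.89 ± 2.73 CPM (SD, n = 8) against 9.92 ± 3.45 CPM (SD, n = 6), with 5 of 6 P301S libraries above the non-Tg mean. The log2 fold change of 0.76 (SE 0.31) had an edgeR p of 0.0221 before and 0.589 after adjustment, and so was not called. Its sign was opposite to that in astrocytes, but the difference between the cell types was not tested, because the astrocyte direction was fixed by the choice of the gene.

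Cnrip1 was the steadiest gene in neurons. Its level was 20.5 ± 2.18 CPM (SD, n = 8) in non-Tg and 21.7 ± 2.37 CPM (SD, n = 6) in P301S neurons, and the log2 fold change was 0.07 (SE 0.15, edgeR adjusted p = 0.944). Pgr ran from 34 to 138 counts in non-Tg and from 55 to 82 counts in P301S neurons, or 34.3 ± 9.44 CPM (SD, n = 8) and 29.5 ± 5.99 CPM (SD, n = 6). Its log2 fold change was -0.22 (SE 0.20, edgeR adjusted p = 0.836). The gene with 1 count in all P301S astrocyte libraries together thus had at least 55 counts in each P301S neuron library.

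Tlcd4 had the lowest log2 fold change of the 7 in neurons, -0.51 (SE 0.32, edgeR adjusted p = 0.750). All 6 P301S neuron libraries, between 17.4 and 31.6 CPM with a median of 20.6, were below the non-Tg mean of 32.3 ± 15.8 CPM (SD, n = 8). The non-Tg neurons were wide, from 7.04 to 59.8 CPM, and enclosed the P301S range. Ankrd49 was at 14.02 ± 5.47 CPM (SD, n = 8) in non-Tg and 14.7 ± 5.39 CPM (SD, n = 6) in P301S neurons, a log2 fold change of 0.08 (SE 0.28, edgeR adjusted p = 0.965).

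Dcdc5 and Snai2 were under the neuron count filter and have no test. Dcdc5 had 1 to 6 counts with a median of 4 in non-Tg neurons and 1 to 7 counts with a median of 4.5 in P301S neurons. Snai2 had 2 to 10 counts with a median of 5 and 4 to 17 counts with a median of 12. For Snai2, 4 of 6 P301S neuron libraries were above every non-Tg library, and the means were 2.45 ± 1.22 CPM (SD, n = 8) and 4.65 ± 2.08 CPM (SD, n = 6). The lowest P301S library, at 1.94 CPM, was below the highest non-Tg library, at 4.44 CPM, so the groups overlapped.

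**Figure D3:**
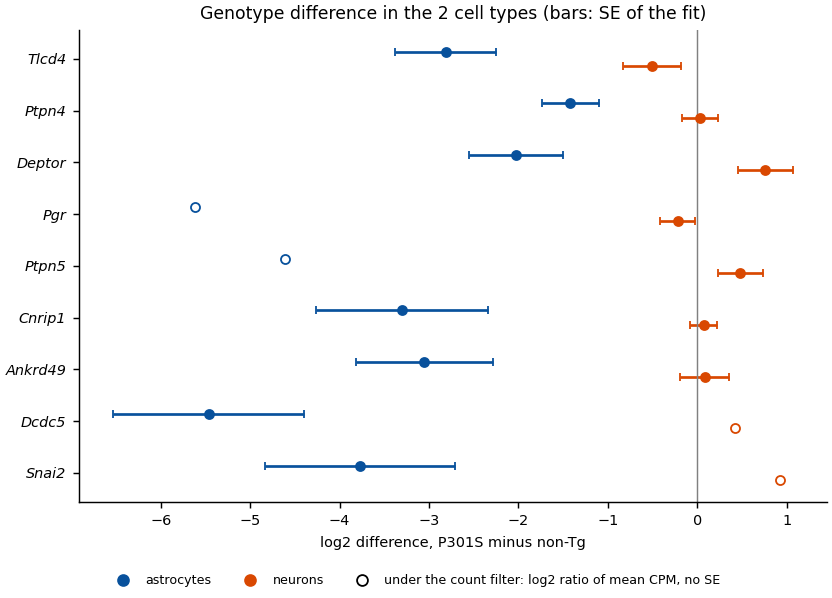
Difference between P301S and non-Tg libraries on the log2 scale (horizontal axis) for each of the 9 genes in astrocytes and neurons; filled points are edgeR log2 fold changes with bars of 1 SE, and open points are log2 ratios of mean CPM, without error, for genes under the count filter. Neuron points lie between -0.51 and 0.93 and astrocyte points at or below -1.42.

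The 9 genes had no common cell type. In non-Tg mice Deptor and Dcdc5 were higher in astrocytes than in neurons without overlap, by ratios of mean CPM of 7.06 and 7.61. Pgr and Cnrip1 were higher in neurons without overlap, by ratios of 9.31 and 1.41. Of the 14197 genes in the fit of all libraries, 15.4% were higher in non-Tg astrocytes and 15.7% higher in non-Tg neurons without overlap. Ptpn5 was 3.03 times higher in neurons, and Tlcd4, Ptpn4, Ankrd49 and Snai2 were 1.58, 1.57, 1.26 and 1.98 times higher in astrocytes, with groups that overlapped for each of these 5. These ratios carry no test, since the non-Tg astrocyte libraries had a part in choosing the genes. In P301S mice 6 of the 9 genes, Tlcd4, Pgr, Ptpn5, Cnrip1, Ankrd49 and Snai2, were higher in neurons without overlap, as were 17% of all genes. Nothing is read from that count, since the genes were picked for low levels in P301S astrocytes. Deptor, the mTOR inhibitor, was at 10.2 CPM in astrocytes and 9.92 CPM in neurons.

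To compare levels between genes, the deposited RPKM values (reads scaled by gene length and depth, with the authors' size factors) were used. In non-Tg astrocytes the order was Ptpn4 at 2.44 ± 0.781 RPKM, Cnrip1 at 1.51 ± 0.348, Ankrd49 at 1.32 ± 0.644, Tlcd4 at 1.21 ± 0.182, Deptor at 0.767 ± 0.278, Snai2 at 0.389 ± 0.239, Ptpn5 at 0.317 ± 0.425, Dcdc5 at 0.192 ± 0.104 and Pgr at 0.0814 ± 0.0471 RPKM (SD, n = 6). Ptpn4 stood above Cnrip1 in range, while the libraries of every later pair of neighbours in this order overlapped. In P301S astrocytes Ptpn4 still led at 0.921 ± 0.256 RPKM, followed by Deptor, Tlcd4, Ankrd49 and Cnrip1 between 0.188 and 0.142 RPKM, with no neighbours among these 4 apart beyond their spread, and then Snai2 at 0.0277 and Ptpn5 at 0.0131 RPKM. Dcdc5 at 0.00306 and Pgr at 0.00160 RPKM (n = 5) came last. Neurons had another order: Cnrip1 led at 2.43 ± 0.274 RPKM in non-Tg (n = 8) and 2.50 ± 0.268 RPKM in P301S neurons (n = 6), followed by Ptpn4 at 1.78 and 1.77 RPKM. Snai2, Deptor and Dcdc5 took the last 3 places in both neuron groups, with Dcdc5 below the range of Deptor in each.

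The genes did not vary together within groups to any large degree. Over the 36 pairs of the 9 genes, the correlation of their deviations from the group mean across the 25 libraries had a median of 0.15. It ran from -0.59 for Pgr with Ptpn5 to 0.55 for Tlcd4 with Ptpn4, and 24 of the pairs were above 0. These libraries share depth and composition, so the values are a description.

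For the 7 genes tested in astrocytes, the 2 genes with the most similar log2 CPM over all 25 libraries were looked up among 11368 genes. The closest were Klhl24 (r = 0.861) and Acta2, smooth muscle actin (0.853), for Tlcd4; Ngly1 (0.863) and Tlcd4 itself (0.820) for Ptpn4; and Tmed3 (0.858) and Tmem220 (0.831) for Deptor. For Cnrip1 they were Fancm (0.913) and Entpd7 (0.905), and for Ankrd49 Erich6 (0.881) and Cdk6, a cell cycle kinase (0.875). For Dcdc5 they were Hbegf, a growth factor of the EGF family (0.789), and Xkrx (0.785). Snai2 had the weakest likeness, to the neurotrophic factor Cntf (0.783) and to Nme1 (0.731). Each of these 14 had a lower mean in P301S than in non-Tg astrocytes, and the likeness rests on the same 25 libraries and the same gap between groups. Acta2, for example, had means of 8.99 and 0.759 CPM. It is on the mural and fibroblast list, and that list as a whole was not lower. Of its 5 genes tested in astrocytes by edgeR, 2 were below 0, and the median log2 fold change was 0.23.

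Relatives of the 9 genes were read from lists of their families and pathways in the same astrocyte comparison. None of the 60 relatives tested over 7 lists was called in either direction in astrocytes (edgeR), beside 0.0247% of all genes called lower and 0.519% called higher. At an unadjusted p under 0.05, 3 were lower and 6 higher. limma voom also called 0, and DESeq2 called Esr1 and Cdh1 lower and Ncoa3 higher, of which Cdh1 is named only for this call. Among the TLC domain family, 10 of 14 listed relatives of Tlcd4 were tested, with a median log2 fold change of 0.44 and 3 below 0. The ceramide synthases Cers1 and Cers4 had log2 fold changes of 1.57 (SE 0.54, edgeR adjusted p = 0.189) and 0.999 (SE 0.35, edgeR adjusted p = 0.192), opposite in sign to Tlcd4. Of the non-receptor tyrosine phosphatases, with Ptprr, 10 of 15 were tested, with a median of 0.48 and 3 below 0. Ptpn12 was at 0.88 (SE 0.33, edgeR adjusted p = 0.232) and Ptpn23 at 1.03 (SE 0.43, edgeR adjusted p = 0.298).

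The mTOR list, which holds the kinase's complexes and regulators, had 14 of 16 relatives of Deptor tested, with a median of -0.09 and 8 below 0. Rptor, the scaffold of complex 1, was at 1.13 (SE 0.41, edgeR adjusted p = 0.224), and Rps6kb1, the kinase S6K that this complex activates, at -0.61 (SE 0.30, edgeR adjusted p = 0.375). The 9 of 10 endocannabinoid genes tested had a median of 0.17 with 3 below 0. The receptor Cnr1, which Cnrip1 binds, was at -0.77 (SE 0.70, edgeR adjusted p = 0.665), and Mgll, the lipase that degrades 2-arachidonoylglycerol, at 0.42 (SE 0.41, edgeR adjusted p = 0.688).

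The steroid receptor list, of Pgr's relatives and their partners, had 9 of 12 genes tested, a median of -0.24 and 5 below 0. Its lowest value belonged to Esr1, the oestrogen receptor alpha, which induces Pgr in many tissues. Esr1 counts were 23, 16, 9, 20, 4 and 12 in non-Tg and 4, 3, 0, 0 and 0 in P301S astrocytes, so the highest P301S library, at 1.13 CPM, lay just under the lowest non-Tg library, at 1.17 CPM. The log2 fold change of Esr1 was -3.41 (SE 1.06, edgeR adjusted p = 0.154), which did not pass the test. Ncoa3, a coactivator of these receptors, was at 0.88 (SE 0.33, edgeR adjusted p = 0.229).

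Of Snai2's relatives, the Snail, Zeb, Twist and Scratch repressors and their cadherin targets, 3 of 10 were tested, with a median of 0.04 and 1 below 0. Zeb2 was at 0.41 (SE 0.25, edgeR adjusted p = 0.480) and Zeb1 at 0.04 (SE 0.23, edgeR adjusted p = 0.965), both abundant where Snai2 was scarce. Of the doublecortin domain family 5 of 10 were tested, with a median of -0.40 and 4 below 0. Dcdc2a was at -2.06 (SE 1.02, edgeR adjusted p = 0.387), and Dclk1, a microtubule-associated kinase, at -0.40 (SE 0.23, edgeR adjusted p = 0.457). In neurons 0 of 64 relatives tested were called by edgeR, DESeq2 or limma voom, with 3 lower and 0 higher at an unadjusted edgeR p under 0.05, and the list medians ran from -0.06 to 0.23.

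**Figure D4:**
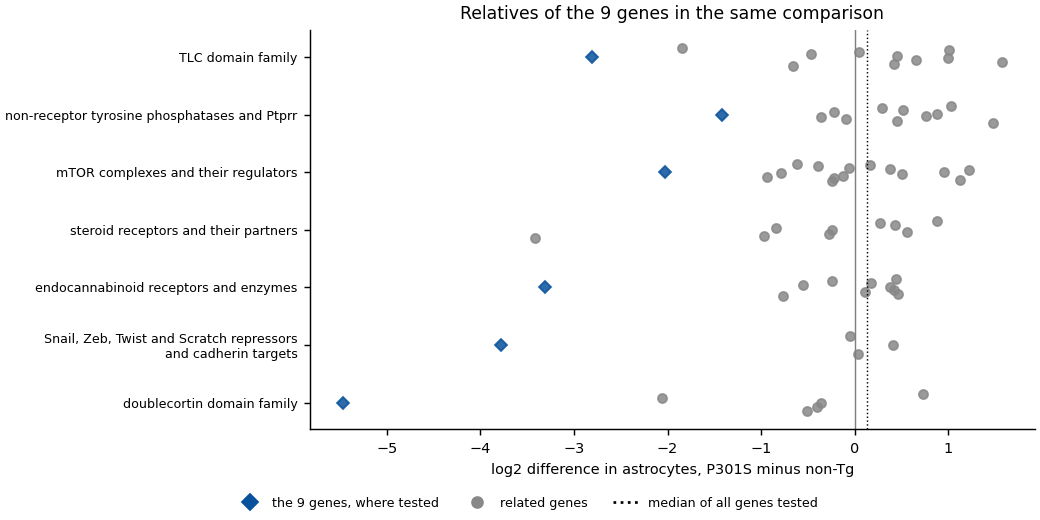
Log2 fold change between P301S and non-Tg astrocytes (horizontal axis) of the 9 genes where tested (diamonds) and of listed relatives (grey points), 1 family or pathway a line; the dotted line is the median of all genes tested, at 0.13. The diamonds, picked on this contrast, lie at -1.42 or lower, and the relatives run from -3.41 for Esr1 to 1.57 for Cers1.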

How the data were processed

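Each deposited file gives, per the file headers, a count per gene (reads uniquely aligned to the gene model) and a size-factor-adjusted RPKM that the authors computed. Per the submitters' processing notes, GSNAP and GRCm38 were used; no aligner version, gene-model version or strand setting was found in the sources used here. Of 36528 gene IDs, 31049 matched a RefSeq symbol, and 3.30% of counts lay on the others. The 9 genes, the gene lists and the tests were chosen with earlier results of these data known.

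Counts were fitted per cell type with edgeR 4.0.16 (R 4.3.3): TMM scaling, its filter on low counts, the robust quasi-likelihood test and Benjamini-Hochberg adjustment over all genes tested, called under 0.05. Levels are CPM scaled by TMM over all 25 libraries, but marker sums are CPM of total counts without TMM scaling. RPKM served only to order genes by level. The floor is 3 counts. Likeness used Pearson's r of log2 CPM with a prior count of 2. Depth, 1245964 to 4453555 counts a library, leaves genes of a few counts imprecise, and exact 95% intervals cover counting error only. DESeq2 1.42.0 and limma 3.58.1 voom were alternatives. The code was tested on simulated data.

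Named genes are the 9; of each list, relatives called or, failing 2, those of smallest p in the astrocyte fit; the 2 most alike genes of each of the 9 that was tested; and neighbours that overlap 1 of the 9 or were called. Replicates are numbered in accession order. Cd11b-positive cells of the same experiment were not analysed here.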

Additional observations from a re-analysis of the deposited data

Results flagged for a closer look

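In 5 of the 36 combinations of gene and group that were checked, 1 library lay far from the others by Dixon's criterion. Its chance rate of about 1 in 20 holds for normally distributed values. That rate does not carry over to CPM of low counts, such as those of Pgr below. Ptpn4 was at 269.609 CPM (806 counts) in non-Tg astrocyte library 6, where the other 5 libraries ran from 131 to 177 CPM. Cnrip1 was lowest in the same library, at 8.028 CPM (24 counts), with the others between 14.4 and 16.8 CPM. Ptpn5 was at 28.578 CPM (58 counts) in non-Tg astrocyte library 4, against 1.06 to 7.87 CPM in the others. Deptor was at 11.737 CPM (22 counts) in non-Tg neuron library 5, against 3.18 to 7.21 CPM. Pgr was at 0.374 CPM in P301S astrocyte library 5, which is 1 count, with the others at 0.

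For Ptpn5, every P301S astrocyte library lay below the non-Tg astrocyte mean and every P301S neuron library above the non-Tg neuron mean, where the log2 ratio of mean CPM was 0.521. The neuron change did not pass the test, the difference between the cell types was not tested, and the astrocyte direction was fixed by the choice of the gene.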

How the results depend on the processing

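In astrocytes edgeR called 3 genes lower in all. The count was 215 with DESeq2, 10 with limma voom, 100 without a filter, 5 with a filter at 1 CPM, 721 with all 25 libraries in 1 fit, and 0 with detected genes as a covariate (228 at an unadjusted p under 0.05). Leaving out 1 library at a time gave 0 to 19, and leaving out P301S libraries 3 and 4, chosen after seeing the data, gave 6, of which 1 was among the 9 genes, Tlcd4. The median log2 fold change of all genes was 0.13, and -0.11 with DESeq2, -0.15 with voom and -0.17 without a filter. All log2 fold changes of the 9 were negative in astrocytes in each alternative that gave a value, 22 for each gene in the main fit except Snai2, with 17. The genes were picked as lower in these same libraries, so the shared sign is a description. Tlcd4 and Deptor were at -1.95 and -1.28 with the sex covariate, and Cnrip1 and Dcdc5 at -4.54 and -6.29 without P301S library 1. Dcdc5 was at -4.69 with voom, -4.58 with detected genes and -4.74 with the sex covariate.

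In neurons 1 gene was called in all, against 35 with DESeq2, 41 with voom, 17 without a filter, 10 with a filter at 1 CPM, 7 with detected genes and 0 with astrocyte markers as a covariate, 0 to 23 when leaving out 1 library at a time, and 38 without non-Tg libraries 5 and 8, whose sample identifiers lie in another range. None of the 9 was called in neurons in any of the 25 alternatives. Their adjusted p-values reached down to 0.155 (Ptpn5), 0.176 (Deptor) and 0.195 (Tlcd4). Ptpn4 was below 0 in 8 and Ankrd49 in 5 of the 25; the signs of the other 5 genes tested did not change. No paired analysis was possible because the labels carry no replicate numbers. Depth limits what can be said of Pgr, Ptpn5, Dcdc5 and Snai2 in P301S astrocytes, where each had 5 counts or fewer over all 5 libraries.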

Other observations

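Of the 7 genes tested in astrocytes that were at or under 3 counts in every P301S library and above it in all or all but 1 of the non-Tg libraries, 5 are not among the 9 genes. Lbp, the lipopolysaccharide-binding protein, had 71 counts over the non-Tg and 2 over the P301S astrocyte libraries, and Ankfn1 had 103 and 4. The other 3 have no descriptive name: Gm32511 with 119 and 9 counts, 6530403H02Rik with 82 and 7, and C330018A13Rik with 62 and 4. They were picked by this pattern, so the values are a description.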
